A study of Mus musculus with 3 samples.

Results

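Expression of 6 integrin subunits, Itga4, Itga6, Itgav, Itga8, Itga10 and Itgb6, was compared between cell types of the mouse mitral valve. They are the integrin genes among the 3264 genes used here, and were taken as a family and not for their levels. The data are 1 matrix of expression per gene and cell barcode, pooled by the authors, and its 3 samples are all labelled as mgR, each from the mitral valve, in a study that examined animals aged 12 weeks. The mgR mice, of strain B6.129-Fbn1tm2Rmz/J, are homozygous for a hypomorphic fibrillin-1 allele (Fbn1mgR/mgR) in every tissue and develop myxomatous mitral valve degeneration, a thickening of the leaflets with loss of matrix order. The barcodes name no mouse, library or genotype, and the study also profiled WT mice and mgR mice treated with rapamycin, so which barcodes came from mgR valves cannot be told from the matrix, and it was treated as 1 sample. The labels name single cells and the study also describes nuclei, which cannot be told apart here, and a barcode is called a cell in both cases.

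Integrins are receptors made of an alpha and a beta chain that bind cells to the extracellular matrix and to other cells and signal into the cell when bound. The alpha chain largely sets the ligand: some bind the RGD tripeptide of fibronectin, fibrillin and related proteins, others laminins of basement membranes, others collagens, and a few bind receptors on other cells. In a valve leaflet, endothelial cells line the surface and rest on a basement membrane, whereas interstitial fibroblasts lie within a collagen-rich matrix and leukocytes and melanocytes are scattered among them.

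Each cell was placed by its own unique molecular identifiers (UMIs), each of which stands for 1 captured transcript. Fibroblasts had UMIs of 2 or more of Prrx1, Col3a1 and Dpt and none of Egfl7 (3051 cells), endothelial cells had Egfl7 and fewer than 2 of those genes (8787 cells), Ptprc cells had Ptprc, which encodes CD45 of leukocytes (468 cells), and melanocytes had 2 or more of the pigment cell genes Mlph, Pax3 and Slc24a5 (95 cells). Cells that met more than 1 rule were left out, and 12401 of 16383 cells (75.7%) fell in 1 of the 4 groups. Fibroblasts were divided by Scn7a (770 with it, 2281 without), and endothelial cells by the pair of genes with most UMIs, Prox1/Kif26b (3263 cells), Tmem163/Kcnh1 (1079 cells) or Selp/Fmo2 (2576 cells), with 1869 cells left unsplit. Median depth was 6007 UMIs per cell in fibroblasts, 5341 in endothelial cells, 4851 in Ptprc cells and 4067 in melanocytes. The barcodes formed 2 runs in the file, of 14222 and 2161 cells, and 11 barcodes occurred in both. Levels are given below for each run where they bear on a result.

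Markers not used by the rules followed the labels, with exceptions. The 9 leukocyte markers in the matrix summed to 31.2 UMIs per 10000 in Ptprc cells and 0.0906 in fibroblasts, and the 6 endothelial markers to 15.9 in endothelial cells and 1.87 in fibroblasts. The 11 further fibroblast markers summed to 46.9 in fibroblasts and 9.76 in endothelial cells, which also carried Postn, Fbn1 and Col5a2. Melanocytes had no further marker to check them by. Cdh19, a cadherin of Schwann cells and other neural crest derivatives, was at 10.9 there and 0.846 in fibroblasts. The other 2 of the 3 glial cell markers had no UMI in melanocytes. Cardiomyocyte markers summed to 1.54 in endothelial cells and 0.113 in fibroblasts. Their part in the results below was not tested.

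The 250 bases before the RefSeq start site (GRCm38.p6) are shown for 3 of the subunits that set the cell types apart: Itga8 and Itga10, both highest in fibroblasts, and Itga4, highest in Ptprc cells. The window of Itga6 is not shown. Itga8 lies on chromosome 2 at chr2:12106632-12301922, minus strand (GENCODE M21, GRCm38), with the window at chr2:12301945-12302194. Itga10 lies at chr3:96645584-96664519, plus strand, with the window at chr3:96645334-96645583, and Itga4 at chr2:79255426-79333123, plus strand, with the window at chr2:79255176-79255425. Capitals mark the only match found.
Itga8: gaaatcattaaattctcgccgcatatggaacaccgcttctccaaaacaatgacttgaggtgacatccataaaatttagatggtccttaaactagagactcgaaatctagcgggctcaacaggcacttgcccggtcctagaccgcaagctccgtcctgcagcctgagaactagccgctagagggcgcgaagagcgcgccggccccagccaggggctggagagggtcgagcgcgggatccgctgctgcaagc
Itga10: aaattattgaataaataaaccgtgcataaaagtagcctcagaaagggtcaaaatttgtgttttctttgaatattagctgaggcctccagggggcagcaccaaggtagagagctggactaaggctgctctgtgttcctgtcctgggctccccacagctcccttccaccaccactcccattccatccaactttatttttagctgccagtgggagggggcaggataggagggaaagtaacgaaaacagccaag
Itga4: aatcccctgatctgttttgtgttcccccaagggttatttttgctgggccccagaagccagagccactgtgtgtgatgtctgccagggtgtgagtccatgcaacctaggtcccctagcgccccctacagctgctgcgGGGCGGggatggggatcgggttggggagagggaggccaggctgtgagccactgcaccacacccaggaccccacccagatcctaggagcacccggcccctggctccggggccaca

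These windows were searched on both strands for the letters of 5 motifs. The GC box was searched as GGGCGG, the TATA box as TATAAA, the CCAAT box by the letters of its name, the ETS motif as CCGGAAG and the AP-1 motif as TGANTCA. The GC box of Itga4, 114 to 109 bases before the start, was the one match, and 32.7% of 32851 promoters hold these letters. The other letters occur in 12.4% (TATA box), 33.8% (CCAAT box), 6.91% (ETS) and 6.75% (AP-1) of promoters, and their absence here says only that they are not in these windows. GC content was 56.4% for Itga8, 48% for Itga10 and 64% for Itga4, against a median of 52.4% over all promoters.

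Itga8 encodes the alpha chain of an RGD-binding receptor of mesenchymal cells, known for its ligand nephronectin. Its level, given as UMIs of the gene per 10000 UMIs of any gene after both were summed within a group, was 2.46 in fibroblasts (95% interval 2.40 to 2.53, 4950 UMIs), 0.401 in Ptprc cells (97 UMIs), 0.116 in melanocytes (5 UMIs) and 0.0735 in endothelial cells (385 UMIs). Fibroblasts stood above every other group, and their interval met no other. The fibroblast level was 33.5-fold that of endothelial cells (95% interval 30.2 to 37.3), with 31.0-fold in the first barcode run and 53.1-fold in the second. As in all that follows, the intervals hold counting error alone, and the variation from mouse to mouse is not in them. Those of levels and ratios also leave out the variation from cell to cell and can be too narrow for it. For Itga8, 1 fibroblast held 58 of the 4950 UMIs.

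Itga10 encodes a collagen-binding alpha chain best known from cartilage. Its level was 0.876 in fibroblasts (95% interval 0.836 to 0.918, 1761 UMIs), 0.0909 in Ptprc cells (22 UMIs), 0.0860 in endothelial cells (451 UMIs) and 0.0466 in melanocytes (2 UMIs). The 3 groups other than fibroblasts had intervals that overlapped one another. Fibroblasts were 10.2-fold above endothelial cells (9.18 to 11.3), with 10.2-fold and 8.09-fold in the 2 runs. Gm42957, a protein-coding gene annotated on the same strand, overlaps the start of Itga10, is not analysed here and could share its reads, so this level is uncertain to that extent.

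Itga6, whose alpha chain is part of the main laminin receptors, had the reverse pattern. Its level was 1.65 in endothelial cells (1.62 to 1.69, 8662 UMIs), 1.44 in Ptprc cells (349 UMIs), 0.373 in melanocytes (16 UMIs) and 0.156 in fibroblasts (313 UMIs). Endothelial cells were 10.6-fold above fibroblasts (9.48 to 11.9), with 10.5-fold and 11.5-fold in the 2 runs. Gm13663 and Gm13662, noncoding transcripts annotated on the same strand and overlapping Itga6, are not analysed here and could share its reads. Of the 5 subunits with at least 50 UMIs in these groups, 2 were at least 2-fold higher in fibroblasts than in endothelial cells and 1 was at least 2-fold lower. Over 2564 genes, 18.6% were that much higher and 15.8% that much lower.

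Itgav, the alpha chain of several RGD-binding receptors that also bind the latent form of TGF-β, varied least between groups. Its level was 1.31 in fibroblasts (1.26 to 1.37), 1.55 in endothelial cells (1.52 to 1.58), 2.47 in Ptprc cells (2.27 to 2.67) and 0.885 in melanocytes (0.626 to 1.21). Every group carried it, and the highest and lowest groups had few cells. Endothelial cells were 1.18-fold above fibroblasts (1.13 to 1.23), but in the second run the ratio was 1.05 and its interval (0.926 to 1.20) included equality.

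Itga4 encodes the alpha chain by which leukocytes bind fibronectin and the vascular adhesion molecule encoded by Vcam1. Its level was 5.44 in Ptprc cells (5.15 to 5.74, 1316 UMIs), 1.96 in melanocytes (1.56 to 2.42, 84 UMIs), 0.0562 in fibroblasts (113 UMIs) and 0.0303 in endothelial cells (159 UMIs). The Ptprc cells and melanocytes stood well apart from the other groups, and from each other. Fibroblasts were 1.85-fold above endothelial cells (1.44 to 2.37), under the 2-fold limit, with 1.67-fold in the first run and 3.39-fold in the second.

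Itgb6 encodes the beta chain of an epithelial receptor that activates latent TGF-β. It had 41 UMIs in all 16383 cells, of which 9 were in fibroblasts, 20 in endothelial cells, 1 in Ptprc cells and 0 in 95 melanocytes, where 3 UMIs would give a level of 0.0699. Its levels in fibroblasts (0.00448, 0.00205 to 0.00850) and endothelial cells (0.00382, 0.00233 to 0.00589) differed by less than counting error, and no comparison of it could be made at this depth.

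**Figure D1:**
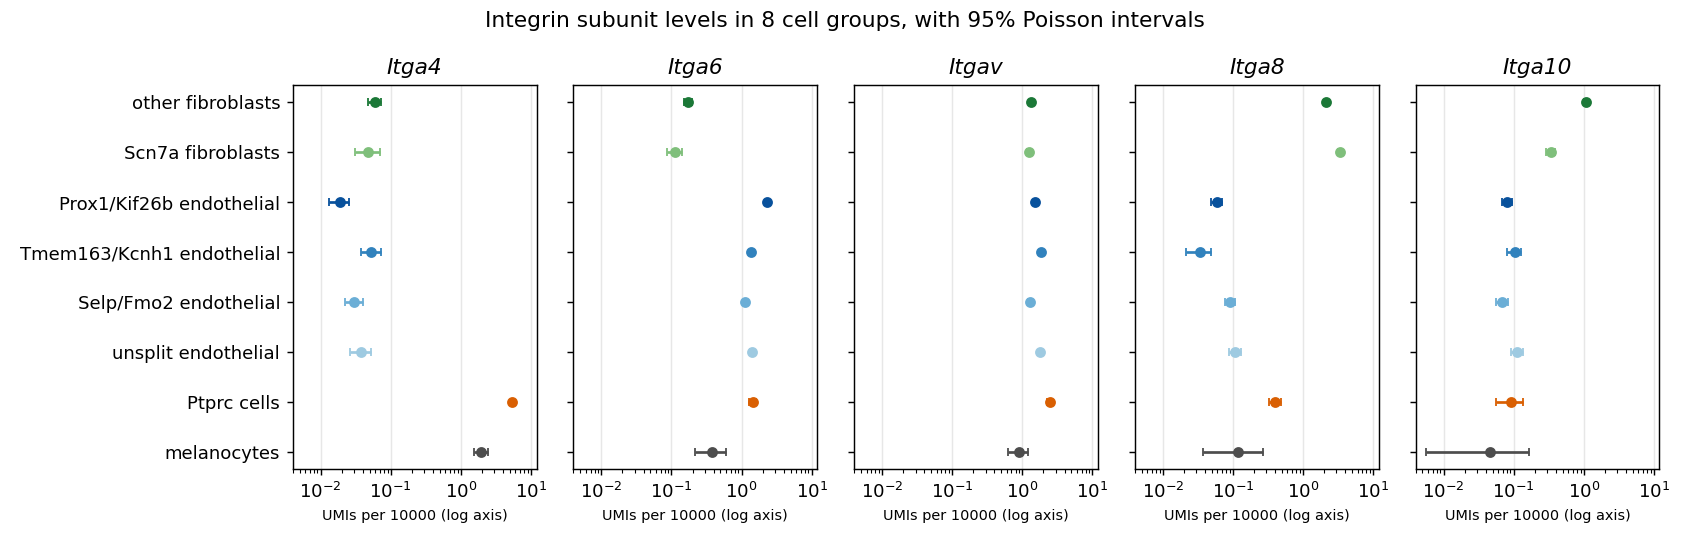
Level of each of 5 integrin subunits (UMIs per 10000, log axis) in the 8 disjoint cell groups, with 95% Poisson intervals for counting error. Itga8 and Itga10 lie furthest right in both fibroblast groups, Itga6 in Prox1/Kif26b endothelial cells at 2.28, and Itga4 in Ptprc cells at 5.44, while Itgav spans only 0.885 to 2.47.

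For each of the 5 subunits compared, the group with the highest level also had the highest share of cells with a UMI. Cells were thinned to a common 2000 UMIs, at the cost of 92 fibroblasts, 558 endothelial cells, 53 Ptprc cells and 10 melanocytes that were shallower. An Itga8 UMI was then found in 30.0% of fibroblasts (28.4% to 31.7%; 52.2% without thinning), against 1.22% of endothelial cells (2.59% without thinning). Itga10 was found in 15.3% of fibroblasts (34.4% without thinning) and 1.57% of endothelial cells (4.32% without thinning). Itga8 was found in 0 of 85 thinned melanocytes, which allows a share of cells with a UMI of up to 3.53% (3 of 85; the exact binomial bound is 4.25%) at this depth, and without thinning 2 melanocytes held its 5 UMIs.

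Itga6 was found in 24.3% of endothelial cells (44.4% without thinning), 20.7% of Ptprc cells and 2.43% of fibroblasts (6.29% without thinning). Itga4 was found in 51.6% of Ptprc cells (46.6% to 56.5%; 67.3% without thinning) and 30.6% of melanocytes (21.0% to 41.5%; 44.2% without thinning), against 1.15% of fibroblasts and 0.510% of endothelial cells. No share was estimated for free RNA, so a low share was not told apart from it. Itgav was found in 21.5% of fibroblasts, 24.9% of endothelial cells, 30.6% of Ptprc cells and 10.6% of melanocytes (47.4%, 48.6%, 58.5% and 26.3% without thinning).

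**Figure D2:**
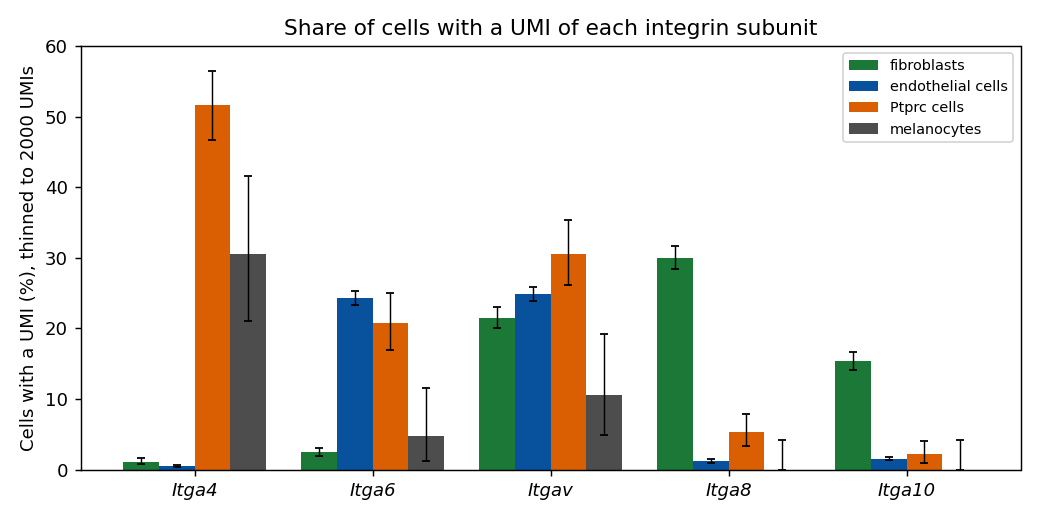
Percent of cells with at least 1 UMI of each subunit after thinning to 2000 UMIs per cell, in fibroblasts, endothelial cells, Ptprc cells and melanocytes, with 95% exact binomial intervals. Itga4 is found in 51.6% of Ptprc cells and 30.6% of melanocytes and in under 2% of the other groups, and Itga8 and Itga10 in 30.0% and 15.3% of fibroblasts.

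Itga8 and Itga10, the 2 subunits with higher levels in fibroblasts than in any other group, were distributed differently within fibroblasts. Itga8 was at 3.35 in Scn7a fibroblasts (3.20 to 3.51) and 2.13 in other fibroblasts (2.06 to 2.21), and was thus 1.57-fold higher with Scn7a (1.49 to 1.67), with 1.60-fold and 1.33-fold in the 2 runs. Itga10 was at 0.337 in Scn7a fibroblasts (0.290 to 0.389) and 1.08 in other fibroblasts (1.03 to 1.13), and was 3.20-fold higher without Scn7a (2.75 to 3.75), with 3.16-fold and 3.15-fold in the 2 runs. Fibroblasts with Scn7a, a sodium channel gene, thus had more Itga8 and less Itga10.

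Itga10 was the 1 subunit of 5 that was at least 2-fold lower in Scn7a fibroblasts, where 4.43% of 2166 genes were. Thinned shares gave the same direction, with Itga8 in 36.6% of Scn7a and 27.7% of other fibroblasts and Itga10 in 5.94% and 18.6%. Itga6 was 1.54-fold higher without Scn7a (1.16 to 2.08), but the second run gave 1.06-fold (0.478 to 2.46). Itgav did not differ beyond counting error between them (1.07-fold higher without Scn7a, 0.978 to 1.17).

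Among fibroblasts without Scn7a, those with a UMI of Prg4, which encodes the lubricating proteoglycan lubricin, or of Fmod, which encodes the collagen-binding fibromodulin, were set against the rest. Itga10 was 1.25-fold higher in the former (1.11 to 1.42) and Itga8 1.27-fold higher in the latter (1.17 to 1.37). In single fibroblasts thinned to 2000 UMIs, Itga10 was found in 17.1% of cells with Itga8 (14.7% to 19.8%) and 14.6% of cells without it (13.1% to 16.2%). The intervals of the shares overlapped. Among fibroblasts without Scn7a alone, the shares were 21.8% with Itga8 (18.6% to 25.3%) and 17.3% without (15.5% to 19.3%). At least 1 of the 6 subunits was found in 54.8% of thinned fibroblasts and at least 2 in 13.8%.

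Within endothelial cells, Itga6 was at 2.28 in Prox1/Kif26b cells (2.21 to 2.35), 1.41 in unsplit cells, 1.38 in Tmem163/Kcnh1 cells and 1.13 in Selp/Fmo2 cells (1.07 to 1.18). Prox1, a transcription factor of lymphatic and valve endothelium, and Kif26b marked the group with the most, 1.79-fold above all other endothelial cells (1.72 to 1.87; 1.81-fold and 1.78-fold in the 2 runs). Selp, which encodes P-selectin, and Fmo2 marked the group with the least, below which other endothelial cells lay 1.66-fold higher (1.57 to 1.75; 1.63-fold and 1.79-fold in the runs). Thinned shares were 31.7% and 17.7% in these groups.

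Itgav was highest in Tmem163/Kcnh1 cells at 1.87 (1.78 to 1.98), next to unsplit cells at 1.82 and Prox1/Kif26b cells at 1.51, and lowest in Selp/Fmo2 cells at 1.27 (1.21 to 1.33). The first 2 of these did not differ beyond their intervals. Cardiomyocyte markers summed to 3.12 and 1.78 in those groups, 1.11 in Prox1/Kif26b cells and 1.18 in Selp/Fmo2 cells, and their part in the Itgav order was not tested. Over all endothelial cells Itgav was found in 24.5% of thinned cells with Itga6 (22.6% to 26.4%) and 25.0% of those without (23.9% to 26.1%). Within each marked subgroup the share was lower with Itga6 and the intervals overlapped. It was 23.8% (18.5% to 29.8%) against 32.0% (28.8% to 35.3%) in Tmem163/Kcnh1 cells, 17.1% against 21.6% in Selp/Fmo2 cells and 23.4% against 24.3% in Prox1/Kif26b cells.

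Itga4, Itga8 and Itga10 were each found in at most 1.57% of thinned endothelial cells, and the differences there rest on few UMIs. Itga4 was 2.01-fold lower in Prox1/Kif26b cells than in the other endothelial cells (1.38 to 2.99, 37 UMIs), the 1 subunit of 5 past 2-fold there, where 6.11% of genes were lower by as much. The ratio was 1.96 in the first run and 1.62 in the second, and it was also under 2-fold with means over cells (log2 ratio -0.93). Itga8 was 2.39-fold lower in Tmem163/Kcnh1 cells (1.59 to 3.74, 25 UMIs), again 1 of 5, where 6.62% of genes were, and it had 0 UMIs in the 62 such cells of the second run. It was under 2-fold with means over cells (log2 ratio -0.95) and with groups of Leiden clusters (-0.76). In Selp/Fmo2 cells Itga8 was 1.37-fold higher (1.11 to 1.69). Prrx1, Col3a1 and Dpt summed to 1.72 in these cells, 0.327 in Prox1/Kif26b cells and 0.214 in Tmem163/Kcnh1 cells. In the Leiden cluster with the highest Fmo2 level, Col3a1 was at 2.30, Prrx1 at 0.0645 and Dpt at 0.0318, so Col3a1 made up most of such a sum. Of these 3 genes, 1 was at least 2-fold higher in Selp/Fmo2 than in other endothelial cells and 1 lower, where 3.78% and 4.29% of genes were. The 11 further fibroblast markers summed to 8.13, 12.5 and 7.08 in the same order of subgroups. The part of these genes in the Itga8 level was not tested.

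**Figure D3:**
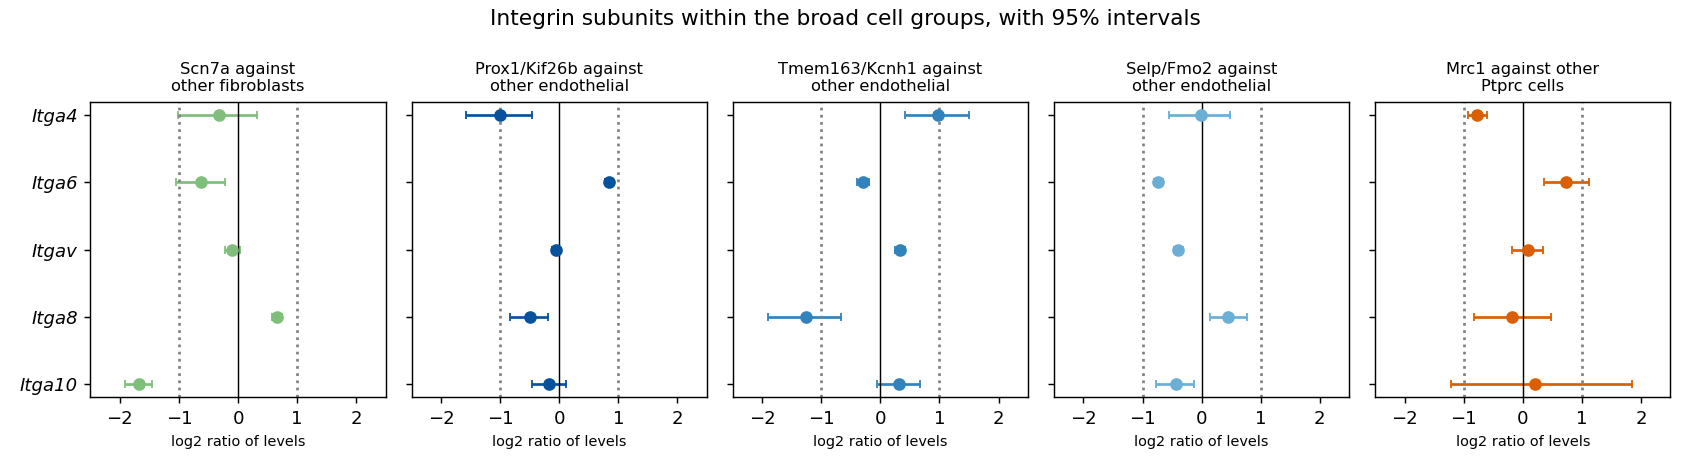
Log2 ratio of the level of each subunit in a subgroup to that in the other cells of its broad group, with 95% intervals for counting error and dotted lines at 2-fold. Itga10 lies left of the dotted line in Scn7a fibroblasts and Itga8 in Tmem163/Kcnh1 endothelial cells, while Itga6 lies right of 0 in Prox1/Kif26b cells and left of it in Selp/Fmo2 cells.

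Ptprc cells carried Itga4, Itga6 and Itgav. Itga4 was 96.7-fold above fibroblasts (79.7 to 118) and 179-fold above endothelial cells (152 to 213). Against fibroblasts it was 101-fold in the first run and 89.0-fold in the second. Itga6 was 9.25-fold above fibroblasts (7.92 to 10.8) but 1.15-fold below endothelial cells (1.03 to 1.28), and Itgav was 1.88-fold above fibroblasts and 1.59-fold above endothelial cells, under 2-fold in both (above it against fibroblasts with means over cells, log2 ratio 1.12).

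Against fibroblasts, 2 of 5 subunits were at least 2-fold higher in Ptprc cells (Itga4, Itga6) and 2 lower (Itga8, 6.15-fold, and Itga10, 9.64-fold), where 17.3% of 2296 genes were higher and 23.8% lower. Against endothelial cells, 2 of 5 were at least 2-fold higher (Itga4 and Itga8), where 18.3% of 2457 genes were. Itga8 was 5.45-fold above endothelial cells (4.32 to 6.83; 5.85-fold and 5.10-fold in the runs). Its level in Ptprc cells was 16.3% of that in fibroblasts (13.2% to 19.9%), and that of Itga10 10.4% (6.48% to 15.7%). Of the 11 further fibroblast markers and the 3 rule genes, only Fmod and Sfrp2 lay above the Itga8 value. They were at 23.8% (13.2% to 39.6%) and 29.3% (12.5% to 58.6%). Those below it included Postn at 10.6%, Prg4 at 9.10%, Col5a1 at 7.54%, Col6a3 at 5.99%, Prrx1 at 5.23% and Ddr2 at 3.75%. The part of these fibroblast genes in the Itga8 level was not tested.

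The Ptprc cells were mixed. Those with Mrc1, the mannose receptor of tissue macrophages (302 cells), had Itga4 at 4.48 and Itga6 at 1.64, and those without (166 cells) had Itga4 at 7.65 and Itga6 at 0.986. Itga4 was 1.71-fold higher without Mrc1 (1.53 to 1.91; 1.80-fold and 1.59-fold in the runs) and Itga6 1.66-fold higher with it (1.28 to 2.19; 1.41-fold and 2.42-fold in the runs). The thinned share of Itga4 did not show this, with 52.3% with Mrc1 (46.3% to 58.2%) and 50% without (41.2% to 58.8%), while that of Itga6 was 24.0% and 13.6%. By level the 2 subunits differed in opposite directions, while Itgav was 2.51 with and 2.37 without Mrc1, within counting error. Markers of other cells moved with this split: T and NK cell markers summed to 0.0473 with Mrc1 and 3.01 without, and the 11 further fibroblast markers to 2.95 and 5.53. Prrx1, a gene of the fibroblast rule, stood at 0.499% and 16.2% of its level in fibroblasts. Their part in the subunit levels was not tested. In the 63 cells with a single Ptprc UMI, Itga4 was at 2.30, and cells with 2 or more had 2.52-fold more (1.92 to 3.36). Of 1277 genes, 15.5% were at least 2-fold higher in the latter and 9.01% lower. Of 9 leukocyte markers 7 were that much higher there, and of 6 further fibroblast markers tested 5 were that much lower. The part of this in the Itga4 level was not tested.

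Melanocytes carried Itga4 as their most distinct subunit, 34.8-fold above fibroblasts (25.9 to 46.5) and 64.5-fold above endothelial cells (48.9 to 84.5). Of the 84 UMIs, 79 were in the first run, and the 8 melanocytes of the second run had 5 (17.1-fold above fibroblasts, 4.67 to 53.5). The leukocyte markers summed to 0.489 in melanocytes, with 4 of 9 at 0, against 31.2 in Ptprc cells. Itga4 in melanocytes was at 36.0% of its level in Ptprc cells (28.5% to 44.9%) and these markers at 1.57%.

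Against fibroblasts, 2 of 5 subunits were at least 2-fold higher in melanocytes (Itga4, and Itga6 by 2.39-fold, 1.35 to 3.95, on 16 UMIs, under 2-fold with groups of Leiden clusters at a log2 ratio of 0.90), where 10.6% of 2186 genes were, and 2 were lower, where 27.8% were. The lower ones were Itga8, 21.2-fold (9.06 to 65.2) on 5 UMIs, 4 of them in 1 cell, and Itga10, 18.8-fold (5.20 to 156) on 2 UMIs. Against endothelial cells, 1 of 5 was higher (Itga4), where 14.5% of 2380 genes were, and 1 lower (Itga6, 4.44-fold, 2.73 to 7.76), where 31.3% were. With 95 cells, neither the Itga8 nor the Itga10 difference between melanocytes and endothelial cells was detectable.

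**Figure D4:**
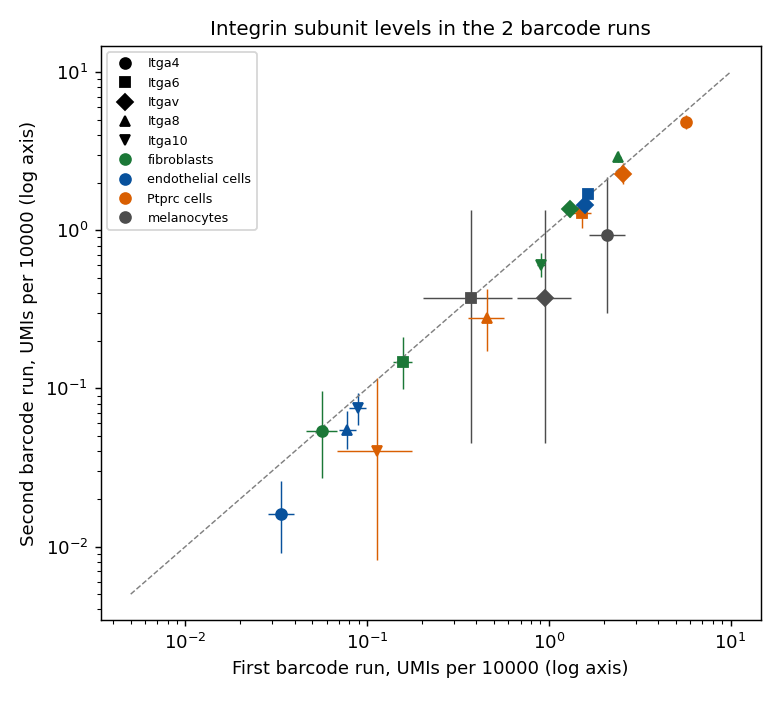
Level of each subunit in the first barcode run (x axis) and the second (y axis), in UMIs per 10000 on log axes, for the 4 broad groups, with 95% Poisson intervals. Points with 0 UMIs in a run are left out. Most points lie near the dashed line of equality, including Itga4 in Ptprc cells (5.71 and 4.82) and Itga8 in fibroblasts (2.41 and 2.91), and Itga4 in endothelial cells (0.0337 and 0.0160) lies below it.

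The levels of the ligands these receptors bind were also compared between fibroblasts and endothelial cells, from lists of RGD and fibronectin-type ligands, laminins and collagens. Of 7 RGD and fibronectin-type ligands tested (8 of 15 listed were in the matrix), 4 were at least 2-fold higher in fibroblasts and 2 lower, beside 18.6% and 15.8% of all genes. The median log2 ratio was 1.11, beside 0.05 over all genes. The higher ones included Tnr, a tenascin (0.153 against 0.00248), Thbs1, a matricellular thrombospondin (1.65 against 0.202, 8.19-fold), and Fbn1, the gene altered in mgR mice (4.89 against 2.05, 2.38-fold). Fn1, which encodes fibronectin, was at 0.359 in fibroblasts and 4.24 in endothelial cells, a ratio of 0.0847 (0.0786 to 0.0913), and reached 6.16 in Prox1/Kif26b cells. The other lower gene, Tgfb2, at 1.03 and 2.08, encodes a latent growth factor whose own propeptide lacks the RGD tripeptide.

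Of 4 laminin genes tested (5 listed), 2 were higher in fibroblasts and 1 lower, beside the same 18.6% and 15.8%, with a median of 0.74. Lama5, an alpha chain of vascular basement membranes, was at 0.0995 in fibroblasts and 0.810 in endothelial cells, and Lamc3 at 0.107 and 0.0439. Endothelial cells thus had more of both Itga6 and Lama5, a gene for a ligand of its receptors. Of 9 collagen genes tested (10 of 12 listed were in the matrix), 5 were higher in fibroblasts and 1 lower, with a median of 1.81. Without Col3a1, whose UMIs chose the fibroblasts, it was 4 and 1 of 8, beside 18.6% and 15.8%, with a median of 1.16. The higher ones included Col9a1 (0.165 against 0.00305), Col6a3 (5.03 against 0.306) and Col5a1 (3.83 against 0.304).

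Of 10 cytoplasmic partners and co-receptors tested (14 listed), 4 were higher in fibroblasts and 1 lower, beside 18.6% and 15.8% of all genes, with a median of -0.08. Rapgef4, an exchange factor for the Rap GTPases that activate integrins, was 14.7-fold higher in fibroblasts than in endothelial cells (3.75 against 0.256) and reached 23.0 in melanocytes. Enah, an actin regulator at adhesions, was at 1.17 and 0.259, and Sdc4, a syndecan co-receptor for fibronectin, at 0.175 and 0.409. Cd44, a hyaluronan receptor, was at 2.12 in fibroblasts, 0.960 in endothelial cells and 6.13 in Ptprc cells.

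**Figure D5:**
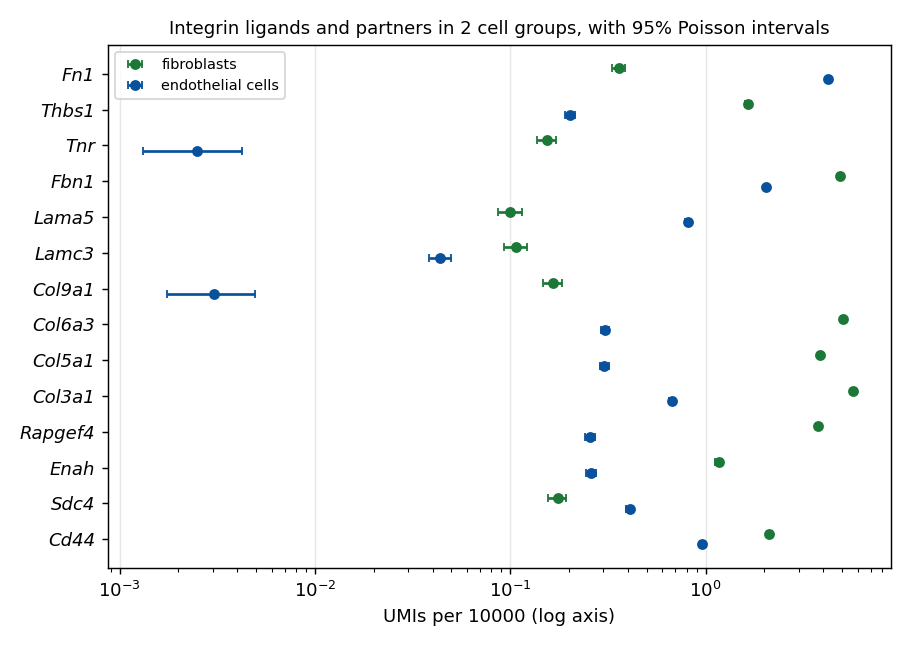
Levels (UMIs per 10000, log axis) of integrin ligand and partner genes in fibroblasts and endothelial cells, with 95% Poisson intervals. The genes shown were picked from those at least 2-fold apart. Listed genes nearer to equality are left out, as are some past 2-fold, such as Tgfb2, which was lower in fibroblasts. Fn1 (0.359 and 4.24), Lama5 and Sdc4 lie higher in endothelial cells, and the rest of the genes shown lie higher in fibroblasts.

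Genes whose levels were most like those of each subunit over the 8 groups were ranked by Pearson's r, on log2 of the level plus 0.05, among 2267 genes with at least 200 UMIs and outside the rules. The points share 1 matrix, and r is given as a description. For Itga8 they included Fap, a protease of activated fibroblasts (r = 0.991), Cercam, Tnfaip6 and Kif1a, which were highest in Scn7a fibroblasts. For Itga10 they included Kcnab1 (r = 0.979), Astn1, Bcan and Rabgap1l, which were highest in the other fibroblasts.

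For Itga4 the genes most alike were Galnt3 (r = 0.998), Acss1, Rnf13, Cep152 and Kif21b, and all 5 were highest in Ptprc cells. For Itga6 they were Ppp2r5a (r = 0.990), Plekho1, F11r, an adhesion molecule of tight junctions, Cds2 and Stx6. In the second run alone r was 0.745 for Ppp2r5a and 0.665 for Cds2 with Itga6, and 0.609 for Rabgap1l with Itga10. For Itgav they were Smox (r = 0.967), Gpr107, Abl2, a kinase of the adhesion cytoskeleton, Inpp4a and Chmp4b. Among the subunits themselves, Itga8 and Itga10 had r = 0.823 and Itga6 and Itga8 had r = -0.840 over the same 8 groups.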

How the data were processed

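Mitral valve libraries were made on a droplet platform (10x Genomics) and, per the submitters' processing notes, counted with Cell Ranger 7.1.0 (mm10). According to the methods, the authors filtered and normalized the data in Seurat with LogNormalize. Each deposited value is the natural log of the UMI count of a gene, scaled to 10000 per cell, plus 1. From these, UMIs and the total of each cell (503 to 23127, median 5349) were recovered as whole numbers within 0.02 for 100% of values. The 3264 genes used lie on chromosomes 1, 2 and part of 3 and held a median of 15.7% of the UMIs of a cell. Another gene with empty values was left out.

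Cells were grouped by UMIs of rule genes, and cells that met more than 1 rule were left out. Doublets were not called. Levels have 95% exact Poisson intervals, ratios exact conditional intervals and shares, after thinning to 2000 UMIs, exact binomial intervals (scipy 1.17.1, numpy 2.4.6, pandas 2.3.3). With 1 pooled sample no test was made and at least 2-fold counted as called, among genes with 50 or more UMIs in both groups together. Named were the 6 subunits, at most 4 genes per list past 2-fold with 200 or more UMIs, beside the 5 genes most alike, and genes a result turned on, chosen after their values were seen. Some genes that this rule names are not reported here. The subunits and gene lists were chosen with earlier results of these data known. For 1 alternative, cells were clustered without the subunits (scanpy 1.11.5, Leiden resolution 0.5). The recovery of UMIs and the ratios of levels between groups set in advance were checked on simulated Poisson counts of abundant genes. Grouping by rule genes, thinning and clustering were not simulated.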

Additional observations from a re-analysis of the deposited data

Results flagged for a closer look

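Cells of 2 kinds outside the compared groups also carried 5 of the 6 subunits, at levels above those that 3 UMIs would give, and 0 UMIs of Itgb6. In the 421 cells with 2 or more fibroblast genes and Egfl7 (median 8709 UMIs), Itga8 was at 1.68, Itgav at 1.51, Itga6 at 0.734, Itga10 at 0.585 and Itga4 at 0.0769 UMIs per 10000. Itga6, Itgav, Itga8 and Itga10 there lay between their levels in fibroblasts and in endothelial cells. Itga4 lay above both, with an interval (0.0511 to 0.111) that included the fibroblast level. In the 163 cells with Ptprc and Egfl7 and under 2 fibroblast genes (median 7302 UMIs), Itga4 was at 2.36, Itgav at 2.11, Itga6 at 1.35, Itga8 at 0.145 and Itga10 at 0.0884. Itga4, Itgav, Itga8 and Itga10 there lay between their levels in Ptprc cells and in endothelial cells. Itga6 lay below both, with an interval (1.15 to 1.57) that included the level of Ptprc cells. Whether such barcodes hold 1 cell or 2 was not tested.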

How the results depend on the processing

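Of 335 values of single ratios under the alternatives, 273 stayed within the main counting interval, 62 moved and 0 reversed a difference past 2-fold. Of 45 ratios, 32 kept their side of the 2-fold limit under all settings. Settings in which a group had no UMI of the subunit gave no ratio and enter neither count. In fibroblasts against endothelial cells the log2 ratio ranged from 4.95 to 5.73 for Itga8, from 3.02 to 3.55 for Itga10 and from -3.52 to -2.78 for Itga6. For Itga4 it was 0.89 as reported, 0.19 with each group by its own rule alone and 1.76 in the second run alone. The cause was not tested.

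Counts of subunits past 2-fold moved as follows. The share of all genes past 2-fold was not computed under these settings, so the counts cannot be set against it. In Scn7a fibroblasts the second run alone gave 2 lower, not 1. In Prox1/Kif26b endothelial cells 0 were lower with means over cells, with cells of at least 2000 UMIs, in the first run alone and with cells of 1 pair only. In Tmem163/Kcnh1 cells 0 were lower with means over cells and with groups of Leiden clusters, and 1 was higher with cells of 1 pair only. In melanocytes, Leiden groups gave 1 higher against fibroblasts and 3 against endothelial cells, overlapping rules 3 higher against endothelial cells, means over cells 2 lower and the second run alone 4 lower. These counts took a subunit without a UMI in melanocytes as lower, and the second run held only 8 melanocytes.

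No paired analysis was possible because the barcodes name no sample, and leaving out a replicate was not run for the same reason. Needing 2 Ptprc UMIs and leaving out barcodes found in both runs were chosen after seeing the data. Counting error limits Itgb6, melanocytes and the second run, and differences between mice could not be measured.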

Other observations

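Genes annotated on the strand opposite a subunit and overlapping it had these levels, and the strand setting of the count is not given in the sources used here. E030013I19Rik, an antisense gene at the start of Itga8, had 49 UMIs in fibroblasts (0.0244 UMIs per 10000), 2 in endothelial cells, 1 in Ptprc cells and 0 in melanocytes. Cerkl, which overlaps the end of Itga4, was at 0.447 in fibroblasts, 0.172 in endothelial cells, 0.0661 in Ptprc cells and 0.279 in melanocytes, an order unlike that of Itga4. Gm13684, which overlaps Itgav, was at 0.0627 in fibroblasts, 0.0645 in endothelial cells and 0.120 in Ptprc cells.

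Cells that met no group rule, 3282 in number with a median of 4350.5 UMIs, had Itgav at 1.74, Itga6 at 0.790, Itga8 at 0.774, Itga10 at 0.523, Itga4 at 0.0613 and Itgb6 at 0.00703, the last on 11 of its 41 UMIs.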
